A study of Mus musculus with 4 samples.

Results

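Cytokine receptors decide which soluble signals a T cell can answer, and 10 receptor genes named in a fixed list were examined here among the 27998 genes counted in blood cells of tumour-bearing mice. The list was *Il7r*, *Il2rb*, *Il2rg*, *Il4ra*, *Il21r*, *Il6ra*, *Il18r1*, *Il18rap*, *Il10ra* and *Ifngr1*, chosen with earlier results of these data known. The data are droplet-based single-cell RNA sequencing of CD3-enriched blood cells from C57BL/6 mice bearing MC-38 tumours under the skin, a colorectal line, sampled on day 18. The mice were female, and 6 to 8 weeks old when the experiments started. A single library was made for each of 4 groups. The first group was untreated. The second received anti-PD-L1, 150 µg per mouse on days 10, 13 and 17. The third received an agonistic antibody to OX40 (150 µg) with the oligonucleotide CpG (25 µg) on day 7, written anti-OX40/CpG here, and the fourth, PDOX, received both treatments. The sample label of the third group names OX40 only, and its CpG was taken from the published regimen. Treatment, mouse and library cannot be told apart, because each group is 1 library. The number of mice behind each library is not certain.

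Interleukin 7 (IL-7) keeps resting T cells alive through *Il7r* and the common gamma chain *Il2rg*. The beta chain *Il2rb* and *Il2rg* together bind IL-2 and IL-15, and *Il4ra* and *Il21r* also pair with *Il2rg*. The remaining genes encode chains of the receptors for IL-6 (*Il6ra*), IL-18 (*Il18r1* and its accessory chain *Il18rap*), IL-10 (*Il10ra*) and interferon gamma (*Ifngr1*).

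Of 5434 cell barcodes, 5299 had at least 200 expressed genes and were kept: 784 without treatment, 1446 after anti-PD-L1, 1559 after anti-OX40/CpG and 1510 in PDOX. Counts are unique molecular identifiers (UMIs), each standing for 1 captured transcript. Levels are UMIs of a gene per 10000 UMIs of all cells in a gate, without 13 mitochondrial, 86 ribosomal and 10 hemoglobin genes. On this scale the median kept cell held 1452, 1637.5, 1587 and 1506.5 UMIs, where the first value is the untreated library, the second anti-PD-L1, the third anti-OX40/CpG and the fourth PDOX. All lists of 4 values below keep this order. Hemoglobin genes held 7.99% of the untreated UMIs against 0.344%, 1.51% and 1.70% in the other libraries. Pairs of libraries shared between 1 and 6 barcodes.

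Cells were sorted into gates by transcripts. T cells had at least 1 UMI of *Cd3d*, *Cd3e* or *Cd3g*, and CD8 and CD4 T cells had UMIs of *Cd8a* or *Cd8b1*, or of *Cd4*, and none of the other lineage. Effector and naive cells were told apart by 8 naive genes (among them *Ccr7*, *Lef1* and *Tcf7*) and 8 effector genes (among them *S100a4*, *Lgals1*, *Id2* and *Ccl5*), none of them a receptor studied here. An effector cell had at least 4 UMIs of effector genes and at least 2 times as many as of naive genes. A naive cell had at least 2 UMIs of naive genes and at least 2 times as many as of effector genes. Natural killer (NK) cells had no *Cd3* UMI and UMIs of at least 2 of 8 NK genes, such as *Ncr1* and *Klrb1c*. B cells, which had no *Cd3* UMI and at least 2 UMIs of B cell genes such as *Cd79a*, *Cd79b* and *Ms4a1*, served as a comparison gate for the shares of cells with a UMI. Myeloid cells had no *Cd3* UMI and at least 2 UMIs of myeloid genes such as *Lyz2*.

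T cells made up 4858 of the kept cells (91.7%), and the label of enriched T cells held in each library, with shares of 89.0%, 92.0%, 95.3% and 89.0%. Of the T cells, 2116 were CD8 and 866 CD4 T cells, and the rest had UMIs of neither or of both lineages. Outside the T cells, 62 cells fell in the NK gate. The gates held 940 naive and 665 effector CD8 cells, and 500 naive and 291 effector CD4 cells. Another 511 CD8 cells (24.1%) and 75 CD4 cells (8.66%) were in neither gate. Effector cells made up 11.7%, 19.2%, 33.7% and 59.9% of the CD8 cells and 8.82%, 9.14%, 33.5% and 58.1% of the CD4 cells. The untreated CD4 effector gate held 9 cells and the anti-PD-L1 NK gate 5 cells, under the 10 required for a test, so 18 sums of gate and library were compared. They held between 20080 and 603641 UMIs.

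Marker lists were summed in each gate. T cell markers (7 of 9 listed genes in the files, *Trac* and *Trbc2* absent) summed to 86.0 UMIs per 10000 in CD8 cells and 89.9 in CD4 cells, led by *Cd3d*. They summed to 17.7 in the NK gate, led by *Lck* (7.35), and to 6.43 in the B gate. B cell markers (5 of 7, *Ighm* and *Igkc* absent) summed to 390 in the B gate, led by *Cd74*, and to 3.54 in CD8, 2.23 in CD4 and 0.186 in NK cells. NK markers (9 of 9) summed to 134 in the NK gate, led by *Tyrobp* (56.5), and 0.315 in naive CD8 cells. Many of these markers also defined the gates, among them the *Cd3* genes, *Cd79a* and *Ncr1*. Their contrast between gates was thus set in part by the gating and is no check of it. *Lck*, *Cd74* and *Tyrobp* were not gate genes.

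The content of the CD8 effector gate differed between libraries. Monocyte markers (7 genes) there summed to 75.4, 55.7, 7.61 and 7.73 UMIs per 10000, led by *Lyz2* at 51.3 and 36.1 in the first 2 libraries, against values from 4.95 to 6.86 in naive CD8 cells. NK markers in the CD8 effector gate summed to 15.6, 11.0, 4.89 and 2.37, led by *Tyrobp* (12.4 and 8.51 in the first 2), with *Klra4* at 0 in the first 3. *Tyrobp* was at 66.1 in myeloid cells and 56.5 in NK cells, so this sum does not separate the 2 cell types. The 9 untreated CD4 effector cells held monocyte markers at 240 (*Lyz2* 205) and T cell markers at 26.1, against monocyte markers from 7.92 to 10.1 in this gate of the other libraries. Their receptor values are printed but enter no test, and directions in CD4 cells are counted over the other 3 libraries. Depth also differed, with medians of 1938.5, 2921, 1846 and 1826 UMIs per CD8 effector cell. Across libraries the median was 1585.5 UMIs in naive CD8, 1980 in effector CD8, 1513.5 in naive CD4, 2031 in effector CD4, 1699 in NK and 1225 in B cells. Tests were therefore repeated without mixed cells, meaning T cells that carried myeloid or B cell transcripts, and on cells thinned at random to 750 UMIs. They were also repeated with stricter gates (at least 8 effector UMIs and 4 times the naive ones, or at least 4 naive UMIs and no effector UMI) and with gates from 4 genes of each list. The part of these differences in the results beyond those repeats was not tested.

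Effector and naive sums were compared within libraries by the edgeR quasi-likelihood test with Benjamini-Hochberg adjustment over 5049 genes, and a gene was called at an adjusted p under 0.05. The test had 10 residual degrees of freedom. Of the 10 receptor genes, 9 had enough counts to be tested, and *Il10ra* had too few. Between effector and naive CD8 cells, 3 of the 9 were called higher and 3 lower, where 12.7% of all genes were called higher and 10.1% lower. Between effector and naive CD4 cells, 4 were called higher and 4 lower, where 9.86% and 6.75% of all genes were. The median absolute log2 fold change of the 9 was 0.94 in CD8 and 1.68 in CD4 cells, against 0.31 and 0.39 over all genes. Their median signed values were −0.20 and −0.25, against −0.01 and 0.01. Since the list was chosen with earlier results of these data known, comparisons of it with all genes are a description only. At an unadjusted p under 0.05 were 8 of the 9 in each lineage, beside 1639 of all 5049 genes in CD8 and 1419 in CD4 cells. Over all genes, 1151 were called in CD8 cells (697 to 1093 with a library left out) and 839 in CD4 cells (437 to 814). Each of the 6 CD8 calls was kept in all alternatives in which the gene was tested, among them the fit without mixed cells.

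A direct test asked whether the effector change differed between CD8 and CD4 cells. It called 1 of the 9 receptors, with a lower change in CD8 cells, and 0 with a higher one, where 0.456% and 0.158% of all genes were called (at an unadjusted p under 0.05, 7 of the 9 and 370 of all 5049 genes). Genes not used for the gates served to check them. *Klf2* and *S1pr1* were lower in effector cells, and *Cxcr3*, *Gzma*, *Gzmb*, *Gzmk*, *Klrg1*, *Cx3cr1*, *Tbx21*, *Cd44*, *Emp3* and *Vim* higher, with these 12 called in CD8 and CD4 cells. *Ikzf2* was also called higher in both (1.70 and 4.35), and *Foxp3* in CD4 cells (3.07, adjusted p = 0.00602) but not in CD8 cells (1.28, adjusted p = 0.370).

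**Figure D1:**
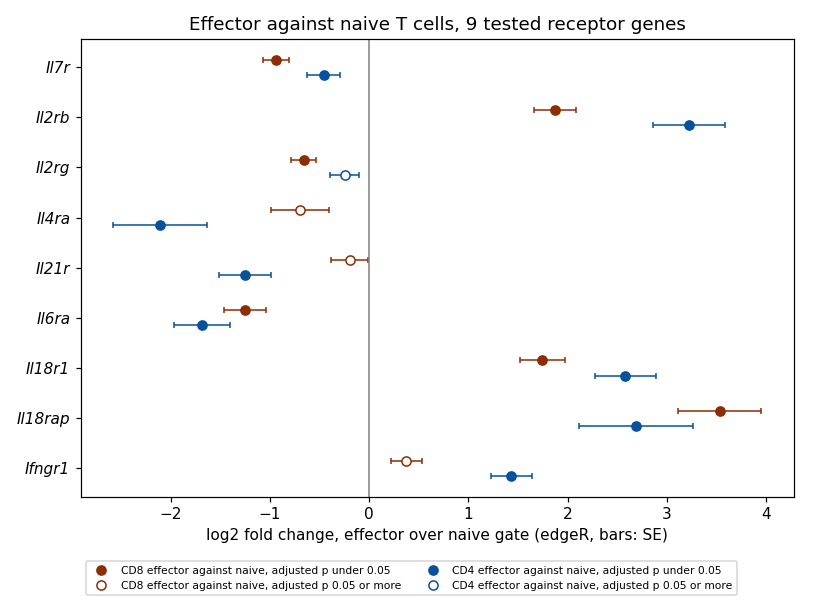
Log2 fold change of effector over naive cells (horizontal axis) for the 9 tested receptor genes (vertical axis), in CD8 and CD4 T cells. Points are edgeR estimates with standard error bars, and filled points have an adjusted p under 0.05, such as *Il2rb* at 1.87 in CD8 and 3.22 in CD4 cells.

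*Il7r* (ENSMUSG00000003882, chromosome 15:9506159-9529941, build GRCm38.p6) binds IL-7 and is the receptor most tied to naive and memory T cells. Its level in naive CD8 cells was 6.96, 5.52, 6.76 and 6.02 UMIs per 10000 (6.22 in all, 95% interval 5.82 to 6.64). In effector CD8 cells it was 4.78, 2.23, 3.51 and 2.91 (2.99 in all, 2.73 to 3.28). Intervals of levels are exact Poisson, those of shares exact Clopper-Pearson and those of ratios exact conditional binomial, each at 95% and for counting error only. The effector values lay below the naive values without overlap, with the untreated effector cells the highest. The log2 fold change was −0.94 (standard error 0.13, 0.521-fold, adjusted p = 4.55e-07 by edgeR quasi-likelihood with Benjamini-Hochberg), lower in 4 of 4 libraries, and the call held under every one of 18 alternatives (−1.33 to −0.83).

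*Il7r* was also lower in effector CD4 cells. Naive CD4 cells held 5.02, 4.66, 6.56 and 4.54 UMIs per 10000 and effector CD4 cells 2.004 (9 untreated cells), 3.03, 4.01 and 3.70. The effector values again lay below the naive ones in the 3 libraries tested. On the log2 scale the change was −0.46 (standard error 0.16, 0.728-fold, adjusted p = 0.0498 by the same edgeR test with Benjamini-Hochberg). This call was lost in 9 of 18 alternatives, for *Il7r* among them those without the anti-PD-L1 (−0.45, adjusted p = 0.0966), anti-OX40/CpG (−0.30, adjusted p = 0.464) or PDOX library (−0.62, adjusted p = 0.0652). The other 6 were no filter, no library term, only these gates fitted, thinned cells (−0.47, adjusted p = 0.146), no cells over 2900 genes (−0.37, adjusted p = 0.0932) and no cells with UMIs of *Foxp3*, a marker of regulatory T cells (−0.41, adjusted p = 0.0860). The difference between the lineages was not called (−0.48, adjusted p = 0.548).

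Cells with an *Il7r* UMI made up 53.1% (49.8% to 56.3%) of naive and 38.6% (34.9% to 42.5%) of effector CD8 cells, although the effector cells were deeper. After thinning, the shares were 38.7% and 19.9%. In CD4 cells they were 49.2% and 44.0%, and 33.8% and 21.4% after thinning. Only 1.48% (0.180% to 5.25%) of B cells, at a lower depth, had an *Il7r* UMI. In the NK gate, 3 UMIs were found, a level of 0.279 (0.0576 to 0.816). NK cells held less *Il7r* than effector CD8 cells, at −3.54 on the log2 scale (standard error 0.49, adjusted p = 2.28e-06 by edgeR with Benjamini-Hochberg) and a lower level in each of the 3 libraries compared.

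Over the 6 gates of naive and effector CD8 and CD4, NK and B cells, means of libraries with at least 10 cells placed *Il7r* highest in naive CD8 (6.31, SD 0.669) and naive CD4 cells (5.20, SD 0.933), which did not differ beyond their spread, meaning by more than the sum of both standard deviations (SD). Effector CD4 (3.58, SD 0.500) and effector CD8 cells (3.36, SD 1.08) followed a step lower and did not differ beyond it. NK (0.260, SD 0.226) and B cells (0.126, SD 0.131) lay a further step below and did not differ beyond it.

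**Figure D2:**
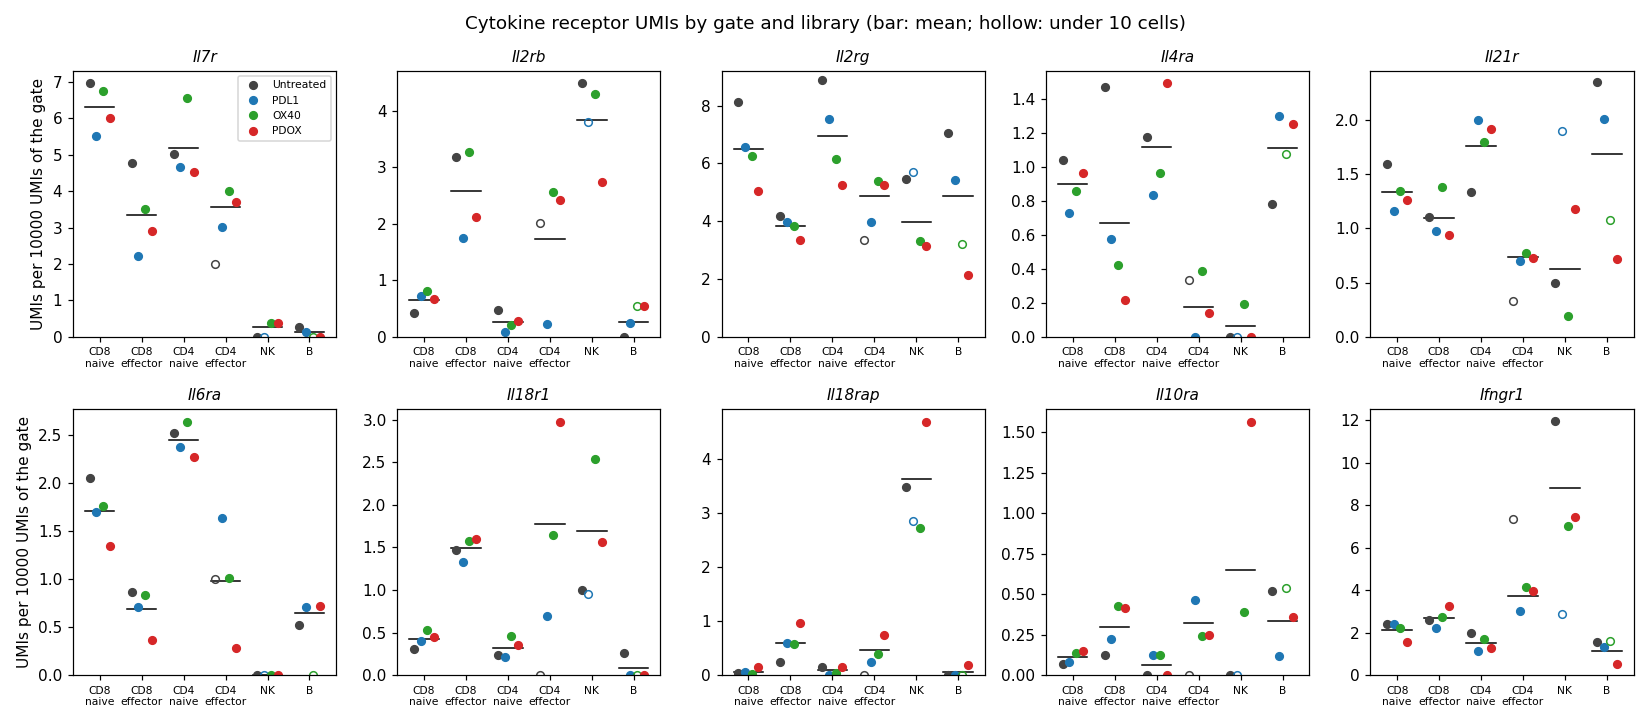
Levels of the 10 receptor genes (1 panel each) in UMIs per 10000 UMIs of the gate (vertical axis) over 6 gates (horizontal axis). Points are libraries, hollow where the gate held under 10 cells, and bars are means of the other libraries, such as 6.31 for *Il7r* in naive CD8 cells.

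*Il2rb* (ENSMUSG00000068227, 15:78479256-78511621) carries the IL-2 and IL-15 signal and ran opposite to *Il7r*. Naive CD8 cells held 0.416, 0.729, 0.810 and 0.669 UMIs per 10000, and effector CD8 cells 3.19, 1.75, 3.27 and 2.12. The lowest effector value was above the highest naive value. The effector change in log2 was 1.87 (standard error 0.21, 3.66-fold, adjusted p = 1.32e-08 by edgeR quasi-likelihood with Benjamini-Hochberg), higher in 4 of 4 libraries, and ran from 1.46 with gates from 4 genes each to 2.70 with stricter gates.

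Naive CD4 cells held *Il2rb* at 0.471, 0.0833, 0.209 and 0.284 UMIs per 10000 and effector CD4 cells at 2.004 (9 untreated cells), 0.233, 2.56 and 2.42. The anti-PD-L1 effector value rests on 1 UMI, lies within the naive range and is the only overlap. The log2 fold change was 3.22 (standard error 0.37, 9.33-fold, adjusted p = 1.67e-08 by edgeR with Benjamini-Hochberg), higher in 3 of 3 libraries. The call held in each of 17 alternatives (3.01 to 3.54). With only the CD4 gates fitted, *Il2rb* had too few counts to be tested. Its naive CD4 levels rest on 6, 2, 5 and 4 UMIs. Between lineages, the effector change did not pass the test (−1.35, adjusted p = 0.258).

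An *Il2rb* UMI was found in 9.47% (7.67% to 11.5%) of naive and 35.5% (31.8% to 39.3%) of effector CD8 cells, or 5.45% and 15.4% after thinning. The CD4 shares were 3.40% (1.99% to 5.39%) and 33.7% (28.3% to 39.4%), or 1.09% and 12.98% after thinning, and 4.44% (1.65% to 9.42%) of B cells had one. In the order of means, NK cells (3.84, SD 0.954) stood before effector CD8 (2.58, SD 0.765), effector CD4 cells (1.74, SD 1.30) and naive CD8 cells (0.656, SD 0.170), with neighbours not differing beyond their spread. Naive CD8 cells stood above naive CD4 cells (0.262, SD 0.162) by more than it, and those did not differ from B cells (0.258, SD 0.269).

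Naive CD4 cells were compared with naive CD8 cells by the same test, where 0.970% of all genes were called higher and 1.84% lower in CD4 cells. Of the 9 receptors, 0 were called higher and 1 lower, which was *Il2rb* (at an unadjusted p under 0.05, 5 of the 9 and 651 of all 5049 genes). Its log2 fold change was −1.64 (standard error 0.39, adjusted p = 0.0106 by edgeR with Benjamini-Hochberg), lower in 3 of 4 libraries. *Il2rb* lost this call without the anti-PD-L1 library (−1.13, adjusted p = 0.152), without the anti-OX40/CpG library (−1.46, adjusted p = 0.233), without a library term (−1.57, adjusted p = 0.0943) and with stricter gates (−0.77, adjusted p = 0.834). In thinned cells it was −2.38. *Ifngr1* was not called (−0.63, adjusted p = 0.0533) but passed with only these gates fitted (−0.60, adjusted p = 0.00304), as did *Il7r* (−0.27, adjusted p = 0.0365) and *Il6ra* (0.48, adjusted p = 0.0152). The median log2 fold change of the 9 was 0.04, against −0.01 over all genes.

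*Il2rg* (ENSMUSG00000031304, X:101264385-101268255), the chain shared by the receptors for IL-2, IL-4, IL-7, IL-15 and IL-21, was found in each gate. Naive CD8 cells held 8.14, 6.56, 6.25 and 5.05 UMIs per 10000 and effector CD8 cells 4.17, 3.96, 3.83 and 3.36. The ranges did not overlap, and in both gates the values were in descending order from the untreated to the PDOX library. On the log2 scale the change was −0.66 (standard error 0.12, 0.633-fold, adjusted p = 7.59e-05 by edgeR with Benjamini-Hochberg), lower in 4 of 4 libraries.

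Naive CD4 cells held *Il2rg* at 8.87, 7.54, 6.14 and 5.25 UMIs per 10000 and effector CD4 cells at 3.34 (9 untreated cells), 3.96, 5.41 and 5.26. These ranges overlapped, and the effector change was not called (−0.25, adjusted p = 0.287). Nor was the difference between lineages (−0.41, adjusted p = 0.606). By means, naive CD4 (6.95, SD 1.59) and naive CD8 cells (6.50, SD 1.27) came first, then effector CD4 (4.88, SD 0.796), B (4.87, SD 2.49), NK (3.97, SD 1.31) and effector CD8 cells (3.83, SD 0.342), without a step beyond the spread between neighbours. B cells had an *Il2rg* UMI in 49.6% of cells, so no gate served as a blank for this gene. The shares were 61.0% in naive and 51.6% in effector CD8 cells, and 37.9% and 24.96% after thinning.

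*Il4ra* (ENSMUSG00000030748, 7:125552271-125579474), for IL-4, and *Il21r* (ENSMUSG00000030745, 7:125603252-125634397), for IL-21, are neighbours on chromosome 7. *Il4ra* in CD4 cells was 1.18, 0.833, 0.961 and 1.49 UMIs per 10000 in the naive gate and 0.334 (9 untreated cells), 0, 0.386 and 0.139 in the effector gate, without overlap. The effector change in log2 was −2.10 (standard error 0.47, 0.233-fold, adjusted p = 0.00124 by edgeR with Benjamini-Hochberg), lower in 3 of 3 libraries. Without the PDOX library the *Il4ra* value was −1.47 and not called (adjusted p = 0.0545), and without the anti-OX40/CpG library it was −2.86. It had too few counts to be tested with stricter gates or in thinned cells. In CD8 cells the change was not called (−0.70, adjusted p = 0.0819), but was without the untreated (*Il4ra* −0.92, adjusted p = 0.0398) or the anti-PD-L1 library (−0.94, adjusted p = 0.0406), or with gates from 4 genes each (−1.05, adjusted p = 0.0126). By library, *Il4ra* was lower in effector than in naive CD8 cells in 3 of 4 and higher in the untreated (1.47 against 1.04 UMIs per 10000). The test between lineages did not call *Il4ra* (1.41, adjusted p = 0.490).

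*Il21r* in CD4 cells was 1.33, 1.999, 1.80 and 1.92 UMIs per 10000 in the naive gate and 0.334 (9 untreated cells), 0.699, 0.772 and 0.724 in the effector gate, again without overlap. The log2 fold change was −1.25 (standard error 0.26, 0.421-fold, adjusted p = 0.000540 by edgeR with Benjamini-Hochberg), lower in 3 of 3 libraries. In thinned cells the *Il21r* value was −0.96 and not called (adjusted p = 0.0886). In CD8 cells the change was not called (−0.20, adjusted p = 0.492), and the test between lineages did not call the difference (1.05, adjusted p = 0.157). *Il4ra* UMIs were found in 13.6% of naive and 4.81% of effector CD4 cells, and *Il21r* UMIs in 22.2% and 13.4%. B cells had them in 14.8% and 17.8% of cells.

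By means, *Il4ra* was highest in naive CD4 (1.12, SD 0.287), B (1.11, SD 0.286) and naive CD8 cells (0.898, SD 0.135). Effector CD8 (0.672, SD 0.553), effector CD4 (0.175, SD 0.196) and NK cells (0.0650, SD 0.113) followed, with no step between neighbours beyond their spread. *Il21r* was highest in naive CD4 (1.76, SD 0.296), B (1.69, SD 0.860) and naive CD8 cells (1.34, SD 0.185). Effector CD8 (1.10, SD 0.202), effector CD4 (0.732, SD 0.0374) and NK cells (0.623, SD 0.502) followed, and only the step from effector CD8 to effector CD4 cells was beyond the spread.

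*Il6ra* (ENSMUSG00000027947, 3:89869324-89913196), the IL-6 binding chain, was 2.04, 1.69, 1.76 and 1.34 UMIs per 10000 in naive CD8 cells and 0.859, 0.707, 0.829 and 0.360 in effector CD8 cells. It was 2.51, 2.37, 2.63 and 2.27 in naive CD4 cells and 1.002 (9 untreated cells), 1.63, 1.01 and 0.278 in effector CD4 cells. In both lineages the effector values lay below the naive values without overlap, and PDOX effector cells were lowest. On the log2 scale the change was −1.25 in CD8 cells (standard error 0.21, 0.420-fold, adjusted p = 1.70e-05 by edgeR with Benjamini-Hochberg, lower in 4 of 4 libraries). In CD4 cells it was −1.68 (standard error 0.28, 0.312-fold, adjusted p = 2.51e-05 by edgeR with Benjamini-Hochberg, lower in 3 of 3 libraries).

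The falls of *Il6ra* were not called different between the lineages (0.43, adjusted p = 0.905). Shares with an *Il6ra* UMI were 22.8% of naive and 11.4% of effector CD8 cells, 29.2% and 12.0% of CD4 cells and 8.15% of B cells. After thinning they were 13.4%, 4.77%, 17.2%, 3.51% and 6.40%. Means ran from naive CD4 (2.45, SD 0.159) over naive CD8 (1.71, SD 0.290), effector CD4 (0.974, SD 0.677), effector CD8 (0.689, SD 0.229) to B cells (0.649, SD 0.110), and of these only the first step was beyond the spread. No *Il6ra* UMI was found in the 62 NK cells (level 0, 0 to 0.343). Set to a floor of 3 UMIs, the level would be 0.279, and the share of NK cells with the transcript is not limited by this. Effector CD8 cells were at 2.25 times this floor, naive CD8 cells at 6.26 and naive CD4 cells at 8.81 times.

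*Il18r1* (ENSMUSG00000026070, 1:40465552-40500854) binds IL-18, and *Il18rap* (ENSMUSG00000026068, 1:40515362-40551707), its neighbour on chromosome 1, completes the receptor. *Il18r1* was 0.312, 0.398, 0.532 and 0.446 UMIs per 10000 in naive CD8 cells and 1.47, 1.33, 1.57 and 1.60 in effector CD8 cells, close to equal across libraries and far from overlap. The effector change in log2 was 1.74 (standard error 0.23, 3.34-fold, adjusted p = 1.66e-07 by edgeR with Benjamini-Hochberg), higher in 4 of 4 libraries.

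In CD4 cells *Il18r1* was 0.236, 0.208, 0.460 and 0.355 UMIs per 10000 in the naive gate and 0 (9 untreated cells), 0.699, 1.64 and 2.98 in the effector gate. Only the untreated effector value did not lie above the naive range, and the PDOX value was the highest. The log2 fold change was 2.58 (standard error 0.31, 5.98-fold, adjusted p = 4.95e-08 by edgeR with Benjamini-Hochberg), higher in 3 of 3 libraries. Without the PDOX library the *Il18r1* value was 1.97 (adjusted p = 0.000260). A difference between the lineages was not called (−0.84, adjusted p = 0.669).

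*Il18rap* was rare in naive cells. Naive CD8 cells held 0.0346, 0.0497, 0.0231 and 0.149 UMIs per 10000 (7 UMIs in all) and effector CD8 cells 0.245, 0.597, 0.574 and 0.971 (110 UMIs), with the lowest effector value above the highest naive value. Both of these values, untreated effector and PDOX naive, rest on 2 UMIs. In the untreated library the direction rests on 2 effector UMIs against 1 naive UMI (interval of the ratio 0.369 to 418). On the log2 scale the change was 3.53 (standard error 0.42, 11.6-fold, adjusted p = 2.59e-08 by edgeR with Benjamini-Hochberg), higher in 4 of 4 libraries. The call of *Il18rap* held in 18 alternatives, but the value ran from 2.65 with gates from 4 genes each to 6.16 with stricter gates.

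In CD4 cells *Il18rap* was 0.157, 0, 0.0418 and 0.142 UMIs per 10000 in the naive gate (5 UMIs) and 0 (9 untreated cells), 0.233, 0.386 and 0.751 in the effector gate (36 UMIs). The untreated effector value lay within the naive range and the others above it. The effector change in log2 was 2.68 (standard error 0.57, 6.42-fold, adjusted p = 0.000679 by edgeR with Benjamini-Hochberg), higher in 3 of 3 libraries. In the anti-PD-L1 library this direction rests on 1 UMI against 0. With only the CD4 gates fitted, *Il18rap* had too few counts to be tested. It passed the low-count filter only with the CD8 and NK gates included. *Il18rap* was not called in thinned cells (1.36, adjusted p = 0.421) or without the PDOX library (2.68, adjusted p = 0.0507), and was 5.70 with stricter gates. A difference between the lineages was not called (0.85, adjusted p = 0.936).

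An *Il18r1* UMI was found in 6.06% of naive and 24.5% of effector CD8 cells (2.67% and 10.3% after thinning), in 4.80% and 35.4% of CD4 cells (2.40% and 16.8%) and in 0.741% of B cells. For *Il18rap* the shares were 0.638% and 14.4% of CD8 cells (0.232% and 5.41%), 1% and 11.3% of CD4 cells (0.654% and 2.46%) and 0.741% of B cells. The NK gate had the largest share with *Il18rap*, 40.3%, and 21.0% with *Il18r1*.

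Both chains are needed in the same cell to make the full receptor. Among 163 effector CD8 cells with an *Il18r1* UMI, 34 had an *Il18rap* UMI (20.9%, 14.9% to 27.9%), against 62 of 502 cells without (12.4%, 9.60% to 15.6%). The cells with *Il18r1* were deeper, at a median of 2225 against 1830 UMIs. Per 10000 UMIs, *Il18rap* was 0.850 (0.605 to 1.16) and 0.644 (0.503 to 0.813), and these intervals overlapped. By library, the levels with and without *Il18r1* UMIs were 0 and 0.323 in untreated, 0.657 and 0.561 in anti-PD-L1, 1.24 and 0.364 in anti-OX40/CpG and 0.883 and 1.01 in PDOX cells, higher with *Il18r1* in 2 of 4. In effector CD4 cells, 15 of 103 cells with and 18 of 188 without *Il18r1* UMIs had an *Il18rap* UMI (14.6% and 9.57%). In NK cells the counts were 5 of 13 and 20 of 49 (38.5% and 40.8%).

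By means, *Il18r1* stood at 1.77 (SD 1.15) in effector CD4, 1.70 (SD 0.777) in NK and 1.49 (SD 0.124) in effector CD8 cells, which did not differ beyond their spread. Naive CD8 (0.422, SD 0.0922), naive CD4 (0.315, SD 0.116) and B cells (0.0869, SD 0.151) were lower, again without a step between neighbours beyond the spread. *Il18rap* stood apart in NK cells (3.64, SD 0.994), followed by effector CD8 (0.597, SD 0.297) and effector CD4 cells (0.457, SD 0.266). Naive CD4 (0.0852, SD 0.0764), naive CD8 (0.0640, SD 0.0574) and B cells (0.0597, SD 0.103) did not differ.

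*Il10ra* (ENSMUSG00000032089, 9:45253837-45269149), the IL-10 binding chain, did not pass the low-count filter and was not tested. Naive CD8 cells held 15 UMIs, a level of 0.103 (0.0575 to 0.170), and effector CD8 cells 54, a level of 0.346 (0.260 to 0.451), with the effector level higher in 4 of 4 libraries. Naive CD4 cells held 6 UMIs (0.0802) and effector CD4 cells 16 (0.250), higher in 3 of 3 libraries without the untreated, which had no UMI in either gate. Shares were 1.60% and 7.67% in CD8, 1.20% and 5.15% in CD4 and 4.44% in B cells. By means, NK cells (0.652, SD 0.815), B (0.332, SD 0.203), effector CD4 (0.319, SD 0.127) and effector CD8 cells (0.296, SD 0.148) came before naive CD8 (0.110, SD 0.0397) and naive CD4 cells (0.0626, SD 0.0723), with no step beyond the spread.

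*Ifngr1* (ENSMUSG00000020009, 10:19591949-19610229), the ligand-binding chain for interferon gamma, was the receptor called in the test between the lineages. That call was lost in 13 of 18 alternatives. Naive CD8 cells held 2.39, 2.42, 2.20 and 1.56 UMIs per 10000 and effector CD8 cells 2.58, 2.23, 2.72 and 3.25, and these ranges overlapped. The change was not called (0.37, standard error 0.15, adjusted p = 0.0776). *Ifngr1* in CD8 cells was called without mixed cells (0.46, adjusted p = 0.0167), without cells over 2900 genes (0.41, adjusted p = 0.0451), with stricter gates (0.95, adjusted p = 0.0239) and without the anti-PD-L1 library (0.58, adjusted p = 0.0186). The other 14 alternatives did not call it, with the lowest value without the PDOX library (0.17, adjusted p = 0.567).

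Naive CD4 cells held *Ifngr1* at 1.96, 1.12, 1.71 and 1.28 UMIs per 10000 and effector CD4 cells at 7.35 (9 untreated cells), 3.03, 4.15 and 3.98, without overlap. The log2 fold change was 1.43 (standard error 0.20, 2.70-fold, adjusted p = 1.52e-06 by edgeR with Benjamini-Hochberg), higher in 3 of 3 libraries, and 1.26 (adjusted p = 1.68e-05) without cells that had a *Foxp3* UMI. The change in CD8 cells was lower than that in CD4 cells by a log2 value of −1.06 (standard error 0.25, adjusted p = 0.0292 by edgeR with Benjamini-Hochberg). This difference was lost in 13 of 18 alternatives (−1.24 to −0.23, the last with stricter gates). For *Ifngr1* these included each with a library left out (untreated −1.07, adjusted p = 0.0931; anti-PD-L1 −0.78, adjusted p = 0.328; anti-OX40/CpG −1.14, adjusted p = 0.311; PDOX −1.14, adjusted p = 0.0664).

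Shares with an *Ifngr1* UMI were 26.2% of naive and 40.2% of effector CD8 cells (13.6% and 17.5% after thinning), 18.8% and 48.5% of CD4 cells (10.2% and 24.6%) and 14.1% of B cells (9.60%). Among 30 CD4 cells with a *Foxp3* UMI, the level was 8.42 (6.45 to 10.8) and the share 70.0%. Over the same 6 gates, mean *Ifngr1* was highest in NK cells (8.80, SD 2.74), then in effector CD4 (3.72, SD 0.605), effector CD8 (2.70, SD 0.425), naive CD8 (2.14, SD 0.400), naive CD4 (1.52, SD 0.387) and B cells (1.13, SD 0.533). Only the step from NK to effector CD4 cells was beyond the spread. Myeloid cells stood at 4.41 (SD 1.75) for *Ifngr1*, 1.70 (SD 0.956) for *Il6ra* and 0.927 (SD 0.382) for *Il10ra*.

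NK cells were also compared with effector CD8 cells in 3 libraries. Of the 9 receptors, 2 were called higher in NK cells and 2 lower, where 2.18% of all genes were called higher and 4.56% lower (at an unadjusted p under 0.05, 5 of the 9 and 935 of all 5049 genes). *Il18rap* was higher, by 2.25 on the log2 scale (standard error 0.36, adjusted p = 2.92e-05 by edgeR with Benjamini-Hochberg), in 3 of 3 libraries. Its NK levels were 3.49, 2.85 (5 cells), 2.73 and 4.70 UMIs per 10000. *Ifngr1* was higher by 1.40 (standard error 0.22, adjusted p = 2.62e-05 by edgeR with Benjamini-Hochberg) in 3 of 3 libraries, with NK levels of 12.0, 2.85 (5 cells), 7.02 and 7.44. Besides *Il7r*, *Il6ra* was called lower (adjusted p = 0.0216), a call lost for *Il6ra* without the untreated (adjusted p = 0.0874) or the anti-OX40/CpG library (adjusted p = 0.304), with DESeq2 (adjusted p = 0.0911), without a library term (adjusted p = 0.0851) and in thinned cells (adjusted p = 0.146). With only the NK and effector CD8 gates fitted, *Il6ra* had too few counts to be tested. *Il2rb*, *Il2rg*, *Il4ra*, *Il21r* and *Il18r1* were not called. The median log2 fold change of the 9 was −0.17, against −0.24 over all genes.

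Between treatments only ratios are given, since each group is 1 library and no test was possible. A gene with at least 50 UMIs was counted as higher or lower when its PDOX over untreated ratio was beyond 1.5-fold in that direction. In CD8 cells, 3 of 9 receptors were higher and 5 lower, where 9.14% of 4114 genes were higher and 12.9% lower. In CD4 cells, 2 of 7 were higher and 1 lower, where 15.7% and 9.56% of 2501 genes were. In naive CD8 cells alone, 0 of 5 were higher and 3 lower, where 6.01% and 6.82% of 1481 genes were. The receptors counted as higher reached 50 UMIs only with the PDOX cells, such as *Il18rap* in CD8 cells (61 against 6 untreated UMIs) and *Il18r1* (116 against 3) and *Il2rb* (96 against 13) in CD4 cells, so these counts are a description and support nothing. Since the share of effector cells was 11.7% in the untreated and 59.9% in the PDOX CD8 cells, ratios within the naive and effector gates are also given.

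*Il7r* in all CD8 cells was 6.33, 4.35, 5.17 and 3.92 UMIs per 10000, a PDOX over untreated ratio of 0.620 (0.530 to 0.725). It was 0.864 (0.659 to 1.12) in naive and 0.609 (0.427 to 0.887) in effector CD8 cells. *Il2rb* in all CD8 cells was 0.891, 1.11, 1.87 and 1.70, a ratio of 1.91 (1.36 to 2.73). The direction turned in effector CD8 cells (0.665, 0.432 to 1.06) and stayed in naive cells (1.61, 0.599 to 4.16). The part of the larger effector share in the ratio over all CD8 cells was not tested.

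*Il2rg* in all CD8 cells was in descending order over the libraries, at 7.78, 5.81, 5.12 and 3.72 UMIs per 10000, a PDOX over untreated ratio of 0.478 (0.410 to 0.555). The ratio was 0.621 (0.467 to 0.816) in naive and 0.806 (0.557 to 1.20) in effector CD8 cells, 0.592 (0.435 to 0.800) in naive CD4 cells and 0.305 (0.141 to 0.623) in B cells. With the mitochondrial, ribosomal and hemoglobin transcripts added back, the CD8 ratio was 0.561. The B gate also differed in content between these libraries, with monocyte markers at 15.1 in the untreated and 71.0 in the PDOX library, platelet markers at 5.21 and 32.7 and NK markers, led by *Tyrobp*, at 0.521 and 10.7, and their part in the result was not tested. In effector CD4 cells the ratio was 1.57 (0.837 to 3.34), against the 10 UMIs of the 9 untreated cells rich in monocyte markers.

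Among the other receptors in CD8 cells, *Il18r1* had a PDOX over untreated ratio of 2.45 (1.58 to 3.92), with 1.43 in the naive and 1.09 in the effector gate. In thinned CD8 cells this *Il18r1* ratio was 3.79 (1.67 to 10.1), on 7 untreated UMIs. For *Il18rap* the ratio over all CD8 cells was 6.34 (2.75 to 17.9), with 4.29 in the naive and 3.96 in the effector gate on 1 and 2 untreated UMIs. For *Il4ra* it was 0.359 (0.228 to 0.557), with 0.930 in naive and 0.147 in effector cells. For *Il21r* it was 0.656, with 0.793 and 0.847, and for *Il6ra* 0.380, with 0.654 and 0.419. *Ifngr1* had a ratio of 1.12 (0.892 to 1.40), which turned to 0.653 (0.380 to 1.08) in naive and was 1.26 (0.802 to 2.09) in effector cells. *Il10ra* had a ratio of 4.52 (1.59 to 17.7) on 4 untreated UMIs.

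In all CD4 cells, the ratio was 2.31 (1.29 to 4.49) for *Il2rb*, 12.1 (4.03 to 59.5) for *Il18r1* on 3 untreated UMIs and 0.387 (0.247 to 0.609) for *Il6ra*. *Il2rg* was at 0.699 (0.565 to 0.869). *Ifngr1* was at 1.12 (0.809 to 1.57), and at 0.995 without mixed cells. *Il21r* was at 0.954, at 1.06 with mitochondrial, ribosomal and hemoglobin transcripts added back and at 1.17 in thinned cells. Monocyte markers in the CD4 gate summed to 52.7 in the untreated and 8.90 in the PDOX library, and B cell markers to 12.5 and 0.799. The part of this content in the ratios was not tested further. Within naive CD4 cells the ratio of *Il6ra* was 0.904 (0.536 to 1.52) and that of *Il18r1* 1.51 (0.293 to 9.70). Several ratios turned within the naive gate: *Il2rb* to 0.603 (0.125 to 2.54), *Ifngr1* from 1.12 to 0.651 (0.334 to 1.24), *Il4ra* from 0.566 to 1.27 (0.622 to 2.64) and *Il21r* from 0.954 to 1.44 (0.754 to 2.81). Against the 9 untreated effector CD4 cells, *Ifngr1* was at 0.541 (0.344 to 0.891), *Il7r* turned from 0.929 to 1.85 (0.826 to 5.12) and *Il21r* to 2.17 on 1 untreated UMI.

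**Figure D3:**
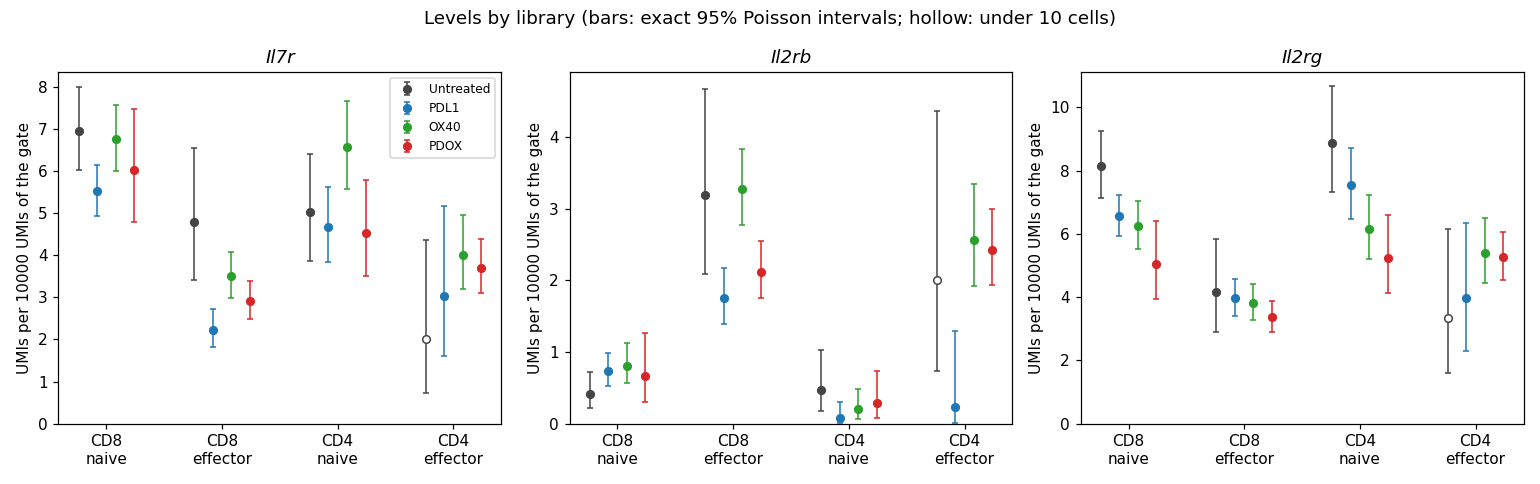
Levels of *Il7r*, *Il2rb* and *Il2rg* in UMIs per 10000 UMIs of the gate (vertical axis) in naive and effector CD8 and CD4 cells (horizontal axis). Points are libraries with exact 95% Poisson intervals, hollow where the gate held under 10 cells, as for *Il2rg* from 8.14 in untreated to 5.05 in PDOX naive CD8 cells.

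Other cytokine receptor chains, some of them partners of the receptors studied here, were tested for 8 of 16 listed genes. In CD8 cells, 2 were higher in effector cells, *Ifnar2* (0.88, adjusted p = 0.00717) and *Il10rb* (0.63, adjusted p = 0.0153), and *Il6st*, which carries the IL-6 signal, was lower (−1.79, adjusted p = 4.51e-05), each by edgeR with Benjamini-Hochberg. In CD4 cells 0 were called by edgeR, with 4 at an unadjusted p under 0.05. There *Il10rb* was at 0.61 (adjusted p = 0.178), *Il6st* at −1.28 (adjusted p = 0.0709) and *Ifnar2* at 0.16 (adjusted p = 0.848), by the same edgeR test. Of the tested chains, 0 were called different between the lineages. Of 21 listed genes of the signalling chain below the receptors, 13 were tested. Among them, *Socs3* was lower in effector CD8 cells (−0.71, adjusted p = 0.0473) and *Stat4* was higher in effector CD4 cells (0.999, adjusted p = 0.0150). Of 9 listed ligand genes, 2 were tested, and *Ifng* was higher in effector cells of both lineages (5.11, adjusted p = 3.05e-10, and 3.69, adjusted p = 7.00e-05).

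The genes most like a receptor over the 18 sums were looked up as a description, since the sums share libraries. *Il7r* ran closest to *Ccpg1* (correlation 0.972), *Ltb* (0.962) and *Chrac1* (0.958). *Il2rb* ran closest to *Sytl3* (0.913) and *B4galt5* (0.903). *Il18r1* ran closest to *Bhlhe40* (0.953), *Ccr2* (0.939) and *Id2* (0.938), the last a gene of the effector gate.

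Promoter windows of 300 bases, 250 before and 50 after the start of transcription, were matched for 8 of the 10 genes, in 10 windows, and none was found for *Il2rb* and *Il10ra*. They were searched on both strands for the T-box (AGGTGTGA), the E-box (CAGGTG), which shares AGGTG with it, and the STAT site (TTCNNNGAA). No window held the T-box, found in 1.28% of 32851 promoters. The E-box lay in windows of *Il6ra* and *Il18r1* (20.2% of promoters) and the STAT site in windows of *Il7r* and *Il18r1* (8.30%). The sequences of 3 windows from RefSeq GRCm38.p6 follow, with matches in capitals: *Il7r* with 1 STAT site, a window of *Il18r1* with 2 STAT sites and 1 E-box, and *Il18rap* with none. A match describes the sequence and shows no binding.

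Il7r promoter, chr15:9529827-9530126, minus strand: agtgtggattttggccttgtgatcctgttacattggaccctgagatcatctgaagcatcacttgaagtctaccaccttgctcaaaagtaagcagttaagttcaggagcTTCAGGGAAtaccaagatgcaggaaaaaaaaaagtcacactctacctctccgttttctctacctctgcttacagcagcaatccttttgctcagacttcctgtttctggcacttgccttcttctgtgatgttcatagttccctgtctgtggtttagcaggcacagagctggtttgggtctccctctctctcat

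Il18r1 promoter, chr1:40465756-40466055, plus strand: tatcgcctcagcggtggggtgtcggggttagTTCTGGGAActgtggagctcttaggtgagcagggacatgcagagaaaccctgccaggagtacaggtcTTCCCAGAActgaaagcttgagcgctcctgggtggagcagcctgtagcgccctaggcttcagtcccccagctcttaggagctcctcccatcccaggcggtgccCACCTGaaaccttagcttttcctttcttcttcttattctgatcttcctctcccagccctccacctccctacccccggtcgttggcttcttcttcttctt

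Il18rap promoter, chr1:40515112-40515411, plus strand: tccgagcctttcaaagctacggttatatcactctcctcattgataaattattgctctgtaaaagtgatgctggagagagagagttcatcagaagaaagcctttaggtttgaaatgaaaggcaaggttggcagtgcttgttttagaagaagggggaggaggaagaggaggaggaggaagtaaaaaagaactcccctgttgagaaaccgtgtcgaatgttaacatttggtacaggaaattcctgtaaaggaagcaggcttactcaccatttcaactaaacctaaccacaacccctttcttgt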

How the data were processed

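The deposited whole UMI counts per gene and cell were used as the authors' Cell Ranger run left them. The submitters' processing notes name build mm10 and Seurat 2, and the annotation is not given in the sources used. The genes and lists were chosen with earlier results of these data known. Named genes are the 10 receptors and examples of the gate and marker genes, listed chains, signalling genes and ligands. Counts were summed per gate and library and compared with edgeR 4.0.16 (TMM, low-count filter, library as block) in R 4.3.3. Tables used Python 3.11.15, numpy 2.4.6, scipy 1.17.1 and pandas 2.3.3. Alternatives were DESeq2 1.42.0, no filter, no library term, fitting only the gates compared, stricter gates, gates from the first 4 genes, thinning, leaving out cells over 2900 genes, mixed cells or *Foxp3* cells, 1 *Cd3* UMI allowed in NK cells and each library left out. Sums of at least 5 cells and the *Il2rg* ratios were added after the data were seen. No doublet caller was run.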

Additional observations from a re-analysis of the deposited data

Results flagged for a closer look

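The change of *Ifngr1* from naive to effector cells differed between CD8 and CD4 T cells by a log2 value of −1.06 (adjusted p = 0.0292, edgeR quasi-likelihood test with Benjamini-Hochberg adjustment). It was smaller in CD8 cells. The call was lost in 13 of 18 alternatives, among them each with a library left out, DESeq2 and the fit without *Foxp3* cells.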

How the results depend on the processing

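Under 18 settings, 728 of 783 receptor log2 values kept direction and call status, whatever their size, 35 lost a call, 12 gained one and 8 turned direction, and the cause was not tested. Reversed in naive CD4 against CD8 cells were *Il18rap* with stricter gates (−0.075), with gates from 4 genes (−0.50) and with a library left out (−0.24 to 0.83), and *Ifngr1* with stricter gates (0.19). Reversed in NK against effector CD8 cells were *Il2rg* with only the gates compared (0.041) and stricter gates (0.18), and *Il18r1* without a filter (−0.11) and with a library left out (−0.34 to 0.29). Of the PDOX over untreated ratios of *Il7r*, *Il2rb* and *Il2rg*, those turned for *Il2rb* in effector CD8 (0.665) and naive CD4 cells (0.603) and for *Il2rg* (1.57) and *Il7r* (1.85) in effector CD4 cells, and for *Il7r* in CD4 cells with all genes (1.03). They moved for *Il7r* in naive CD8 cells (0.864), and with all genes (0.728), for *Il2rg* in naive (0.621) and effector CD8 cells (0.806) and with all genes (0.561), and for *Il2rb* in effector CD4 cells (1.21). Genes called between effector and naive CD8 cells (1151) were 400 with stricter gates, 408 in thinned cells and 697 to 1093 with a library left out, with 6 to 8 receptors. In CD4 cells (839) they were 518 with only the gates compared, 355 with stricter gates, 346 thinned and 437 to 814 with a library left out, with 5, 5, 4 and 5 to 8 receptors. For the difference between lineages (31) they were 10 without a library term, 1 with stricter gates, 14 with 4 genes, 15 thinned, 18 with sums of 5 cells and 2 to 34 with a library left out. The receptors called there were 0 under these and under DESeq2, no filter, only the gates compared and without *Foxp3* cells. In naive CD4 against CD8 cells (142) they were 363 with only the gates compared, 13 with stricter gates, 83 thinned and 70 to 137 with a library left out. The receptors called there were 4 with only the gates compared, 2 without cells over 2900 genes and with 1 *Cd3* UMI allowed in NK cells, 0 with stricter gates or without a library term and 0 to 1 with a library left out. In NK against effector CD8 cells (340) they were 221 with DESeq2, 517 without a filter, 196 with stricter gates, 165 thinned and 141 to 373 with a library left out, with 3 to 4 receptors.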
